A study of Macaca fascicularis with 20 samples.

Results

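The ventricular zone (VZ) was compared with the cortical plate (CP) in small RNA libraries of the fetal visual cortex of the crab-eating macaque (Macaca fascicularis), as 4 VZ libraries against 4 CP libraries. These were chosen by their labels, without use of any measured value, from 14 libraries whose columns could be tied to a label and from 20 labelled samples in all. Each zone was cut once in area 17 and once in area 18 in each of 2 sets. Set 1 was at embryonic day 80 and set 2 at embryonic day 79, and replicates 1 and 2 of a region are its libraries of sets 1 and 2. The 4 groups were therefore VZ_17, VZ_18, CP_17 and CP_18 with 2 libraries each, all from tissue for which no treatment, genotype or sex was named in the labels. The remaining 6 of the 14 libraries came from the outer subventricular zone between VZ and CP, and entered the fit, where they bear on the scaling, the set effect and the spread, but not the contrast. The labels name no animal and do not say whether 1 fetus supplied all regions of a set. The p-values therefore reflect only how far these libraries vary, which may be partly technical.

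The VZ lines the ventricle and is filled with radial glia, the stem cells of the cortex, whose divisions give rise to neurons and to basal progenitors. The CP lies under the pial surface and takes in young neurons that have finished migrating and begin to grow dendrites and synapses. A microRNA (miRNA) is cut from a hairpin that can release a short RNA from its 5′ side (the 5p arm) and one from its 3′ side (the 3p arm). Each arm has its own seed and its own set of mRNA targets, which it represses, so the arms were counted and tested as separate features. In laser-cut tissue, fewer cells of a type and less of a miRNA per cell cannot be told apart.

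The 8 libraries held between 5078172 and 8147197 counts over 1656 arms of 828 miRNA names. Between 1001 and 1263 arms had a count in the VZ libraries and between 1321 and 1388 in the CP libraries, with no overlap between the zones. Some arms of low level rested on 1 library. Of the 405 arms that averaged 10 CPM (counts scaled to a common library size) or more over the 8 libraries, 25 were in VZ_18 replicate 1 at least 5 times as high as in any other VZ library, 20 in VZ_17 replicate 2, 13 in CP_18 replicate 2 within CP, and 0 to 5 in each of the other libraries. VZ_18 replicate 1 also had the largest sum of red cell arms (miR-451, miR-144 and miR-486) at 327 CPM, against 55.9 to 127 CPM in the other VZ libraries and 23.0 to 126 CPM in CP. The neuronal miR-124-3p, usually among the most abundant miRNAs of brain, was nearly missing from both zones, with 4, 0, 0 and 0 counts in VZ and 13, 0, 11 and 19 in CP. It therefore could not serve as a check of the CP label. Levels are CPM after TMM scaling, which assumes that most arms do not differ, and are listed throughout in the order VZ_17 replicates 1 and 2, VZ_18 replicates 1 and 2, CP_17 replicates 1 and 2, CP_18 replicates 1 and 2. Among the 8 libraries the TMM factors ran from 0.606 in CP_17 replicate 1 to 1.455 in VZ_17 replicate 2. Overlap and spread are given for scaled levels unless shares are named, and can differ by share of counts.

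A few arms supplied most of the small RNA in both zones. The 5 most abundant arms held 60.2% of the mean VZ library and 65.5% of the mean CP library, and the 20 most abundant held 84.7% and 84.5%. Between the 20 highest of VZ and the 20 highest of CP, 16 arms were shared. Ranks over the 405 arms correlated between the zones (Spearman's rho = 0.83 across arms, which are not independent), a description of libraries that share their preparation.

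miR-125b-5p, a neural miRNA that favours neuronal differentiation, ranked first in all 8 libraries. It held 35.3%, 37.6%, 26.8% and 36.1% of the counts in VZ and 49.3%, 40.2%, 45.1% and 43.2% in CP. The shares of the zones did not overlap, with 33.9% ± 4.87 in VZ and 44.5% ± 3.80 in CP (SD, n = 4). After scaling between libraries its log2 difference, VZ minus CP, was -0.80, with a 95% interval from -1.71 to 0.11, and it did not pass the test (edgeR adjusted p = 0.298).

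The other ranks at the top separated the zones in part. miR-99a-5p, a relative of miR-100 encoded beside a copy of miR-125b, ranked 3 in VZ and 4 in CP, with 7.43% ± 2.54 and 4.74% ± 1.76 of the counts. miR-149-5p ranked 4 and 5, with 4.79% ± 2.53 and 3.56% ± 0.91. Neither passed the test, and the 95% interval of the log2 difference was -0.53 to 1.07 for miR-99a-5p and -0.86 to 0.68 for miR-149-5p. miR-125a-5p shares its seed with miR-125b-5p and ranked 6 in VZ and 2 in CP. It held 3.66%, 5.39%, 4.17% and 3.80% of the counts in VZ and 9.99%, 7.14%, 7.70% and 6.34% in CP, so that every CP library lay above every VZ library. Its log2 difference was -1.30 ± 0.40 (SE, edgeR adjusted p = 0.0347). This call ended when any library other than VZ_18 replicate 2 was left out, with adjusted p from 0.0616 to 0.265.

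miR-9-5p is expressed in progenitors and in neurons, where it acts on the timing of neurogenesis. It ranked 7 in VZ and 3 in CP, at 4.36%, 0.479%, 4.35% and 4.88% of the counts in VZ and 7.19%, 3.07%, 6.18% and 3.28% in CP. VZ_17 replicate 2 was far below every other library, and the zones overlapped. Its log2 difference of -0.92 ± 0.51 did not pass (edgeR adjusted p = 0.298). It passed as lower in VZ without VZ_17 replicate 1 (-2.14, adjusted p = 0.00296), and was near 0 with VZ_18 replicate 1 and VZ_17 replicate 2 both left out. miR-26a-5p held 2.81% ± 1.03 and 3.28% ± 0.75, miR-16-5p, of the cell-cycle family of miR-15 and miR-16, 1.90% ± 0.81 and 1.33% ± 0.27, and miR-191-5p 1.54% ± 0.87 and 1.21% ± 0.58. None of the latter 3 passed the test.

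Of the 24 arms among the 20 most abundant of either zone, 9 were called between the zones at an adjusted p under 0.05. Of all 1139 tested arms 7.37% were called, but abundant arms were called more often whatever their name. The share was 38.5% of the 52 arms between 1000 and 10000 CPM and 28.6% of the 14 arms above that. miR-92b-3p ranked 5 in VZ, with 4.54% ± 1.52 of the counts, and 75 in CP, with 0.0687% ± 0.0296. miR-222-3p ranked 19 in VZ and 77 in CP. In the other direction miR-139-5p ranked 14 in CP and 58 in VZ, miR-342-3p 8 and 16, miR-130b-5p 9 and 15, let-7f-5p 13 and 29, let-7g-5p 15 and 36, and miR-361-5p 19 and 27. The ranks of miR-92b-3p in single libraries ran from 4 to 7 in VZ and from 63 to 88 in CP, and those of miR-139-5p from 51 to 75 in VZ and from 12 to 17 in CP.

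Testing 1139 arms with edgeR's quasi-likelihood test, with the set as a block, gave 84 called arms (7.37%). Of these 30 (2.63%) were higher in VZ and 54 (4.74%) lower, and 243 arms had an unadjusted p under 0.05. Among the 405 arms averaging 10 CPM or more, 78 (19.3%) were called, 29 higher and 49 lower. A further 10 arms of at least 10 CPM had an adjusted p between 0.05 and 0.10, among them miR-221-3p. The split moved with the scaling. DESeq2's size factors gave 34 higher and 42 lower, and library totals gave 37 higher and 32 lower. The median log2 difference of all tested arms was -0.22 with TMM, 0.02 with DESeq2's size factors and 0.21 with library totals. Differences near these values therefore have no settled direction.

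The share of arms called depended on their level. It was 7.42% of the 229 arms between 10 and 100 CPM, where the median SE was 0.90, 33.6% of the 110 arms between 100 and 1000 CPM, with a median SE of 0.43, 38.5% of the 52 arms between 1000 and 10000 CPM, and 28.6% of the 14 arms above that. Counts were also simulated for this comparison, without a set effect, over 1048 tested arms. In these the test recovered 11.9% of 67 arms changed 2-fold, 59.7% of 67 changed 4-fold and 78.8% of 66 changed 8-fold. No called arm of at least 10 CPM differed by less than 2-fold, 31 differed by 2- to 4-fold and 47 by more. Arms without a call are thus not shown to be equal.

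**Figure D1:**
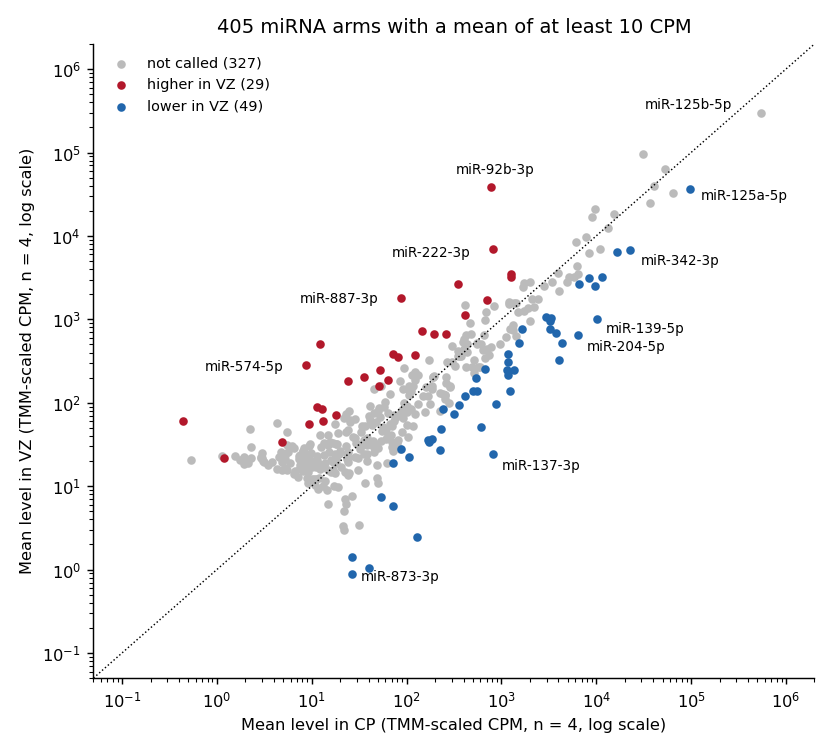
Mean level of 405 miRNA arms in CP (x axis) and VZ (y axis), both in TMM-scaled CPM on log scales, with the dotted line marking equal levels. Red points are the 29 arms called higher in VZ and blue points the 49 called lower; miR-125b-5p is the highest point in both zones, and miR-92b-3p stands far above the line.

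By share of all counts the called arms were unequal in weight. Those higher in VZ took 6.31% to 10.5% of the counts of a VZ library and 0.507% to 0.763% of a CP library. miR-92b-3p alone was 53.3% to 64.5% of these counts in the VZ libraries. Those lower in VZ took 6.59% to 10.99% of a VZ library and 17.4% to 21.9% of a CP library.

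Zone-specific arms were taken as those whose lowest library in one zone was at least 4 times the highest library of the other, with at least 10 CPM in all 4 libraries of the higher zone. There were 4 for VZ and 7 for CP. Among all tested arms, 35 (3.07%) had 4 VZ libraries above all 4 CP libraries and 115 (10.1%) had 4 CP libraries above all 4 VZ libraries. The larger number of arms detected in CP goes in the same direction, and its part in the second count was not tested. No arm was at 5 CPM or more throughout one zone and at 1 CPM or less throughout the other, so each specific arm also had counts in the other zone.

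All 4 VZ-specific arms came from 3 hairpins. miR-92b-3p, which in the mouse cortex restrains the production of intermediate progenitors, stood at 52140, 46430, 25500 and 31240 CPM in VZ and at 1082, 961, 582.8 and 518.5 CPM in CP. Its lowest VZ library was 23.6 times its highest CP library, and area 17 was above area 18 in both zones and both sets. Its partner miR-92b-5p stood at 499, 733.6, 496.1 and 285.4 CPM in VZ and at 15.9, 21.8, 6.42 and 4.70 CPM in CP. The zones were 13.1 times apart at their closest libraries, and the fitted log2 differences of the arms, 5.64 ± 0.44 and 5.58 ± 0.49, lay within 1 SE of each other (edgeR adjusted p = 1.5e-11 and 2.3e-10).

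miR-887-3p, a little-studied miRNA, had the narrowest CP range of the group. It stood at 2393, 1777, 1315 and 1820 CPM in VZ and at 84.2, 93.7, 85.9 and 88.3 CPM in CP. The zones were 14.03 times apart at their closest libraries. It ranked 40 in VZ and 178 in CP. miR-574-5p stood at 138.3, 651.7, 173.7 and 166.4 CPM in VZ and at 8.75, 15.5, 9.74 and 0.635 CPM in CP. VZ_17 replicate 2 was the high library and CP_18 replicate 2 the low one, and the zones were 8.93 times apart at their closest. The calls of these 4 arms held in all 17 alternative analyses.

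The 7 CP-specific arms were led by miR-137-3p, a regulator of neuronal maturation, dendrites and synapses. It stood at 21.1, 12.5, 38.6 and 25.8 CPM in VZ and at 509.5, 438.2, 1343 and 962.2 CPM in CP. In both zones and both sets area 18 was above area 17, and the closest libraries of the zones were 11.4 times apart. miR-326-3p, which in humans lies in an intron of the beta-arrestin gene ARRB1, stood at 40.9, 34.7, 45.7 and 85.1 CPM in VZ and at 568.9, 667.6, 554.7 and 677.9 CPM in CP. Its CP libraries were close to each other at scaled levels but ran from 0.03445% to 0.0772% by share. VZ_18 replicate 2 was the high VZ library.

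miR-139-5p was the most abundant of the CP-specific arms. It lies in an intron of the phosphodiesterase gene PDE2A and stood at 1604, 510.5, 1138 and 841.2 CPM in VZ and at 15290, 8582, 9828 and 7181 CPM in CP. At these scaled levels set 1 was above set 2 within each region. By share of counts CP_17 went the other way, with 0.926% in set 1 and 0.992% in set 2. miR-135b-5p stood at 691, 398.6, 390.6 and 613.1 CPM in VZ and at 3101, 3457, 5087 and 5596 CPM in CP, 4.49 times apart at the closest. miR-132-5p is the partner of the activity-regulated neuronal miR-132-3p, and stood at 26.02, 11.1, 38.0 and 33.7 CPM in VZ and at 176.1, 168.1, 192.6 and 364.3 CPM in CP. Its CP_18 replicate 2 library lay above the other CP libraries. The log2 differences of miR-137-3p, miR-326-3p, miR-139-5p, miR-135b-5p and miR-132-5p were -5.05 ± 0.62, -3.64 ± 0.44, -3.35 ± 0.39, -3.02 ± 0.42 and -3.14 ± 0.53. These 5 calls held in all 17 alternatives.

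The remaining CP-specific arms were of low level. miR-873-3p had levels of 0, 0.271, 3.26 and 0 CPM in VZ and 25.3, 15.5, 24.6 and 39.98 CPM in CP. miR-323b-3p, of the imprinted cluster on human chromosome 14q32, had 1.51, 0, 1.21 and 2.90 CPM in VZ and 23.0, 22.0, 36.1 and 26.02 CPM in CP. Their calls were less secure than those of the abundant arms. That of miR-873-3p ended without CP_17 replicate 1, CP_18 replicate 2 or VZ_18 replicate 2 (adjusted p = 0.0578, 0.0684 and 0.0832). That of miR-323b-3p ended without CP_17 replicate 1, CP_17 replicate 2, CP_18 replicate 1, VZ_17 replicate 2 or VZ_18 replicate 1 (0.0567, 0.0702, 0.075, 0.0928 and 0.107).

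**Figure D2:**
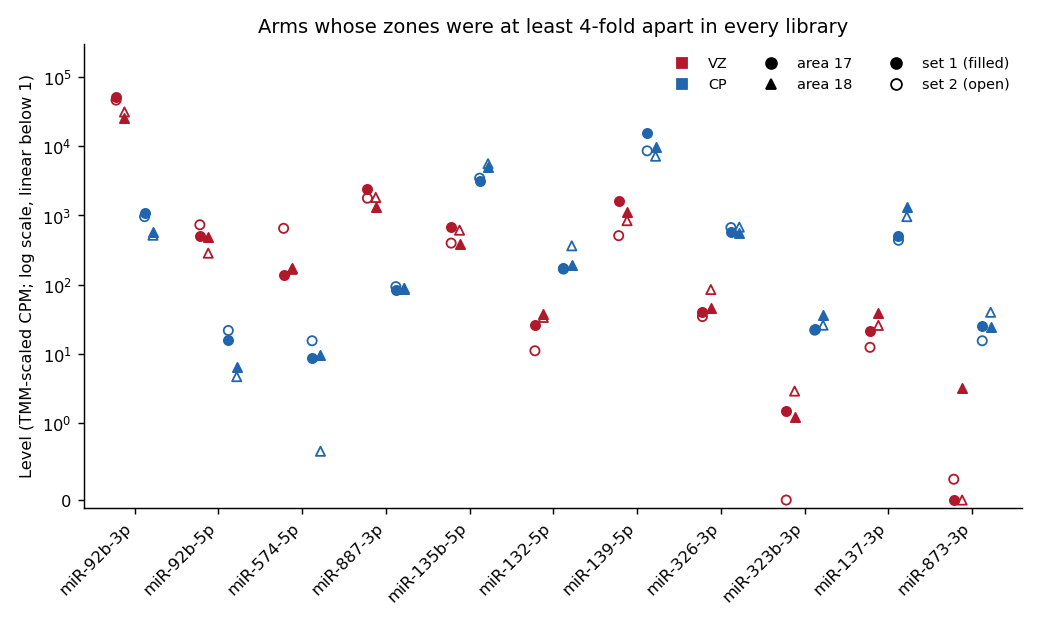
Level in each of the 8 libraries (TMM-scaled CPM, log scale, linear below 1) of the 11 arms whose zones were at least 4-fold apart at their closest libraries. Red is VZ and blue CP, circles are area 17 and triangles area 18, and filled and open symbols are sets 1 and 2; miR-92b-3p is the most abundant VZ-specific arm and miR-139-5p the most abundant CP-specific arm.

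Several arms with large differences did not reach that distance. miR-204-5p, encoded in an intron of TRPM3 and abundant in the choroid plexus, stood at 180.2, 286.7, 223.8 and 1906 CPM in VZ and at 7238, 7022, 4895 and 6400 CPM in CP. VZ_18 replicate 2 was several times above the other VZ libraries and still below every CP library. miR-138-5p, which limits the size of dendritic spines, stood at 302.8, 219.1, 572.8 and 207.6 CPM in VZ and at 3352, 1952, 6042 and 4790 CPM in CP. It did not overlap, and area 18 was above area 17 in CP in both sets. miR-222-3p, which lowers p27 and so eases entry into the cell cycle, stood at 15050, 2910, 4387 and 5269 CPM in VZ and at 1582, 409.5, 787 and 484.2 CPM in CP. At scaled levels VZ_17 replicate 1 was far above the other VZ libraries. By share miR-222-3p was 1.11% of that library and 0.4235% to 0.707% of the other VZ libraries.

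miR-876-3p, a neighbour of miR-873 in the human genome, stood at 0, 0.135, 18.0 and 5.23 CPM in VZ and at 86.3, 70.5, 70.0 and 64.4 CPM in CP. The CP libraries lay close together, while the VZ counts were few outside area 18. miR-155-5p, induced in activated immune cells, stood at 322.6, 89.1, 81.8 and 238.7 CPM in VZ and at 25.1, 17.9, 25.0 and 28.6 CPM in CP. miR-193a-5p stood at 73.8, 106, 112.7 and 58.9 CPM in VZ and at 9.44, 7.38, 13.7 and 14.9 CPM in CP. Neither overlapped, and with miR-138-5p, miR-204-5p, miR-222-3p and miR-876-3p these calls held in all 17 alternatives.

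Beyond the 10 largest in each direction, 58 called arms of at least 10 CPM made up the middle ranks. Their median SE was 0.43 against 0.60 for the 20 largest, whose median level was 125 CPM. A smaller difference is called only with a smaller SE, so the selection by the call itself favours this order. The 19 middle-ranked arms higher in VZ differed by 1.39 to 2.88 on the log2 scale at a median of 230.2 CPM, and 16 of them did not overlap between the zones. The 39 lower in VZ differed by -3.16 to -1.15 at a median of 693.6 CPM, and 35 did not overlap. Of all tested arms, 3.07% lay without overlap higher in VZ and 10.1% higher in CP. The call on these same libraries favours arms without overlap, so these counts are no separate support.

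Among the middle-ranked arms higher in VZ, 6 kept their call in all 17 alternatives. miR-574-3p, the partner of the VZ-specific miR-574-5p, stood at 1616, 5194, 1577 and 2161 CPM in VZ and at 372.8, 525.5, 202.6 and 300.3 CPM in CP. VZ_17 replicate 2 was again the high library, as for the 5p arm. miR-423-5p stood at 1083, 681.7, 456.4 and 671.3 CPM in VZ and at 204.6, 165.1, 104.1 and 106 CPM in CP. The log2 differences of these arms were 2.88 ± 0.40 and 2.34 ± 0.38 (edgeR adjusted p = 2.8e-06 and 3.6e-05).

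miR-29a-3p is of a family that targets collagens and DNA methyltransferases and that increases in maturing neurons after birth. It stood at 476.8, 348.1, 346.2 and 382.7 CPM in VZ, which is a narrow range, and at 57.1, 58.3, 59.3 and 113 CPM in CP. Its log2 difference of 2.46 ± 0.42 placed it higher in VZ. miR-152-3p, of the DNMT1-targeting family of miR-148 and miR-152, stood at 522, 234.7, 308.8 and 339 CPM in VZ and at 109.3, 58.1, 80.6 and 76.2 CPM in CP. miR-1180-3p stood at 864.6, 850.2, 406.4 and 546.7 CPM in VZ and at 247.2, 237.5, 187.3 and 107.4 CPM in CP. miR-3613-5p completed the group, with 177.7 to 318.8 CPM in VZ and 35.7 to 83.8 CPM in CP. None of these arms overlapped between the zones.

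The other 13 middle-ranked arms higher in VZ each lost the call when some single library was left out, with adjusted p from 0.0511 to 0.578. miR-23a-3p, an abundant member of a hairpin cluster with miR-24 and miR-27a, stood at 4401, 3425, 1661 and 4453 CPM in VZ and at 1143, 1176, 1128 and 1588 CPM in CP. The zones did not overlap, and the call ended without CP_17 replicate 2, CP_18 replicate 1 or VZ_18 replicate 2 (adjusted p = 0.0673, 0.0668 and 0.079). miR-210-3p, the main hypoxia-induced miRNA, stood at 1957, 617.7, 734 and 1251 CPM in VZ and at 681.7, 406.2, 252.9 and 318.3 CPM in CP. Here the zones overlapped at scaled levels. Its shares did not overlap, at 0.0899% to 0.168% in VZ and 0.0193% to 0.047% in CP. Its call ended without CP_17 replicates 1 or 2, CP_18 replicate 1, VZ_17 replicate 1 or VZ_18 replicate 2 (adjusted p = 0.0627, 0.0698, 0.148, 0.0672 and 0.194). let-7b-5p, of the family that accumulates as progenitors differentiate, stood at 2981, 5210, 2609 and 2067 CPM in VZ and at 1563, 1803, 1040 and 600.4 CPM in CP. It did not overlap, and its call ended without CP_17 replicates 1 or 2 or CP_18 replicate 2 (adjusted p = 0.0922, 0.0715 and 0.156).

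miR-28-3p stood at 449.5, 463.8, 353.4 and 247.8 CPM in VZ and at 135.3, 93.0, 130.6 and 128.8 CPM in CP, with no overlap and a log2 difference of 1.61 ± 0.40. Its call ended without CP_17 replicates 1 or 2 or CP_18 replicate 1 (adjusted p = 0.0627, 0.0511 and 0.0744). miR-942-5p, at 41.3 to 65.0 CPM in VZ and 2.88 to 18.0 CPM in CP, lost its call without CP_17 replicate 2 (adjusted p = 0.0593). miR-877-5p, a mirtron released by splicing, stood at 108.8, 19.6, 87.3 and 24.2 CPM in VZ and at 21.9, 3.57, 26.8 and 0.381 CPM in CP. Set 1 was above set 2 in both zones. The zones overlapped at scaled levels but not by share, at 0.002855% or more in VZ and 0.002043% or less in CP. The call ended without CP_17 replicates 1 or 2 or CP_18 replicate 2 (adjusted p = 0.0581, 0.143 and 0.157). miR-3676-5p, a sequence that overlaps a transfer RNA, stood at 364.5, 1186, 496.6 and 628 CPM in VZ and at 307.5, 330.6, 284.1 and 121.3 CPM in CP, with VZ_17 replicate 2 the high library. Its call ended without CP_17 replicates 1 or 2, CP_18 replicate 2, VZ_17 replicate 2 or VZ_18 replicate 2 (adjusted p from 0.0817 to 0.251).

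miR-221-3p, encoded beside miR-222, had a larger share of the counts than any called middle-ranked arm higher in VZ. It stood at 35420, 9349, 14720 and 23490 CPM in VZ and at 17420, 7620, 7381 and 6596 CPM in CP. At these scaled levels the zones overlapped through CP_17 replicate 1. By share of counts they did not, with 1.36% to 3.15% in VZ and 0.563% to 1.055% in CP. The log2 difference of 1.16 ± 0.40 did not pass (edgeR adjusted p = 0.0784). It passed in 9 of the 17 alternatives.

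Of the 39 middle-ranked arms lower in VZ, 15 kept their call in all 17 alternatives. miR-7-3p, the partner of a miRNA of neuronal and endocrine cells, stood at 181.3, 278.3, 315.1 and 201.5 CPM in VZ and at 1050, 1377, 1365 and 1602 CPM in CP. miR-598-3p stood at 70.3, 154.6, 80.1 and 82.9 CPM in VZ and at 437.9, 919.7, 1085 and 1055 CPM in CP. In neither case did the zones overlap, and the log2 differences were -2.46 ± 0.38 and -3.16 ± 0.43. miR-708-5p, from an intron of the teneurin gene TENM4, stood at 639.6, 901.3, 465.6 and 733.2 CPM in VZ and at 2384, 5766, 2447 and 4638 CPM in CP. Set 2 was above set 1 in both zones and both areas. miR-935-3p stood at 92.7, 157.4, 210.3 and 97.6 CPM in VZ and at 1663, 956.8, 1639 and 662.6 CPM in CP, where set 1 was the higher set. By share of counts set 1 was the higher in CP_18 but not in CP_17 (0.101% in set 1 and 0.111% in set 2).

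miR-342-3p, from an intron of EVL and abundant in both brain and lymphoid cells, was the most abundant of these 15. It stood at 7725, 7548, 6269 and 5497 CPM in VZ and at 34620, 17050, 24540 and 15370 CPM in CP. At scaled levels the VZ libraries were within a narrow range and the CP libraries were higher in set 1. By share the VZ libraries ran from 0.572% to 1.1%. The log2 difference was -1.67 ± 0.37 (edgeR adjusted p = 0.0021). miR-340-3p stood at 852.3, 817, 649.2 and 741.3 CPM in VZ and at 3500, 2780, 3288 and 3376 CPM in CP. Both groups were tight at scaled levels and less so by share, at 0.0631% to 0.119% in VZ and 0.212% to 0.35% in CP. The log2 difference was -2.08 ± 0.36. miR-4286-5p stood at 584.3, 1497, 994.7 and 1121 CPM in VZ and at 2170, 4327, 3611 and 3287 CPM in CP, the highest library of each zone being that of area 17 in set 2.

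let-7i-5p stood at 191.2, 37.5, 232.5 and 398.8 CPM in VZ and at 1961, 1162, 736.5 and 829.3 CPM in CP. VZ_17 replicate 2 was the low library, and the log2 difference of -2.53 ± 0.48 was opposite to that of its relative let-7b-5p. miR-664-3p stood at 265.8, 319.8, 104.4 and 290.2 CPM in VZ and at 989.6, 946.7, 1270 and 1421 CPM in CP. miR-95-3p stood at 316.8, 228.1, 376.9 and 314.3 CPM in VZ and at 711.6, 750, 1625 and 1666 CPM in CP. Its CP level in area 18 was above that in area 17 in both sets, as for miR-137-3p and miR-138-5p.

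Low-level members of the 15 were miR-767-5p, from an intron of the GABA receptor gene GABRA3, miR-628-5p and miR-192-5p, a miRNA abundant in liver and gut. miR-767-5p stood at 15.9, 77.6, 15.8 and 26.6 CPM in VZ and at 159.5, 187.8, 152.1 and 195.6 CPM in CP. miR-628-5p had 16.6, 17.5, 139 and 20.3 CPM in VZ and 176.1, 186, 308.9 and 245.1 CPM in CP. VZ_18 replicate 1 was the high VZ library for miR-628-5p, and likewise for miR-192-5p at 66.8 CPM against 22.2 to 29.6 CPM in the others.

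The other 24 middle-ranked arms lower in VZ lost the call in some alternative, 20 of them when a single library was left out (adjusted p from 0.0534 to 0.376). let-7g-5p stood at 4131, 1124, 1196 and 3490 CPM in VZ and at 12270, 6995, 7650 and 12310 CPM in CP, with no overlap. let-7f-5p stood at 6256, 628.1, 2333 and 3680 CPM in VZ and at 18770, 5211, 12900 and 8726 CPM in CP. It overlapped at scaled levels because VZ_17 replicate 1 lay above CP_17 replicate 2. Its shares did not overlap, at 0.0914% to 0.494% in VZ and 0.602% to 1.14% in CP. Its call ended without VZ_18 replicate 1 (adjusted p = 0.0902). miR-132-3p, induced by neuronal activity, stood at 142.4, 104.4, 115.9 and 185.5 CPM in VZ and at 355.8, 726.1, 364.5 and 767.1 CPM in CP. Its CP libraries were higher in set 2, in both areas.

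miR-218-5p, carried in introns of the axon guidance genes SLIT2 and SLIT3, stood at 705.4, 271.2, 801.2 and 296.2 CPM in VZ and at 1716, 1053, 2069 and 1244 CPM in CP. At these scaled levels set 1 was above set 2 in every region, and the zones did not overlap. By share of counts CP_17 went the other way, with 0.104% in set 1 and 0.122% in set 2. By share the zones also overlapped, since VZ_18 replicate 1 (0.106%) lay above CP_17 replicate 1 (0.104%). miR-361-5p stood at 4562, 2255, 2507 and 3319 CPM in VZ and at 9323, 5332, 10040 and 8917 CPM in CP. Its call ended without CP_17 replicate 1, CP_18 replicate 2, VZ_17 replicate 2 or VZ_18 replicate 1 (adjusted p = 0.155, 0.0566, 0.104 and 0.167). miR-331-3p had 1840 to 3410 CPM in VZ and 6268 to 7354 CPM in CP. This CP range was narrow at scaled levels but ran from 0.382% to 0.7245% by share. The call of miR-331-3p ended without any library but VZ_17 replicate 1 and VZ_18 replicate 2 (adjusted p from 0.0547 to 0.223).

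At the end of the ranking, the smallest called difference was that of miR-129-3p, a neuronal miRNA, at -1.15 ± 0.36 (edgeR adjusted p = 0.0416). It stood at 612.3, 1173, 315.2 and 940.6 CPM in VZ and at 1022, 1356, 1405 and 2849 CPM in CP, so that the zones overlapped. The call ended without any library but VZ_18 replicate 2 (adjusted p from 0.0792 to 0.376). miR-505-3p, by comparison, stood at 1289, 1332, 625.9 and 1072 CPM in VZ and at 3390, 3135, 2275 and 3045 CPM in CP. It did not overlap at scaled levels, but by share its highest VZ library (0.194%) lay above its lowest CP library (0.173%). Its call ended without CP_17 replicate 1 or VZ_18 replicate 1 (adjusted p = 0.0576 and 0.123).

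**Figure D3:**
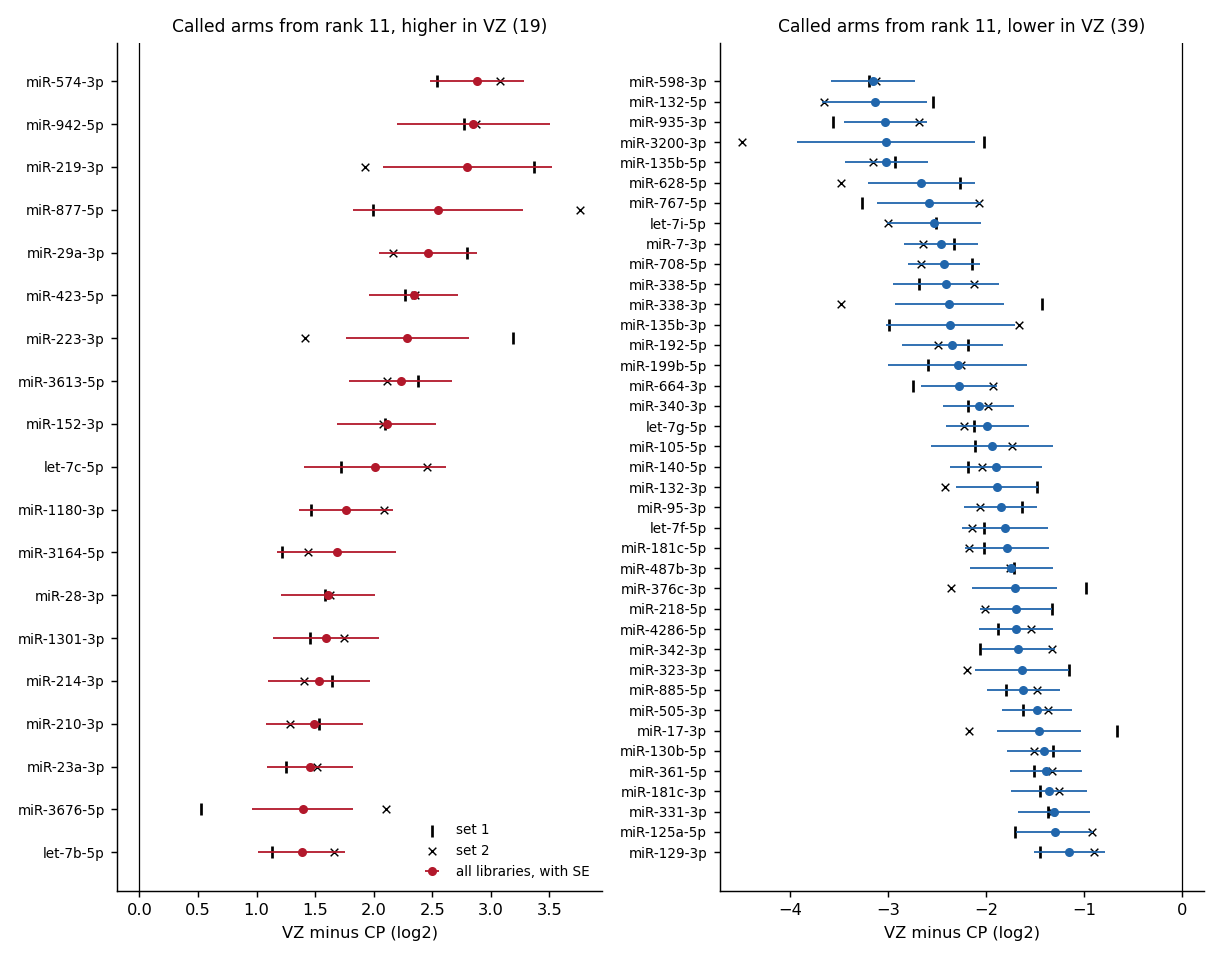
VZ minus CP (log2) of the 58 called arms ranked 11 or lower in size, 19 higher in VZ (left, red) and 39 lower (right, blue). Points with bars are the fitted difference and its SE, and the black marks are the differences within set 1 and set 2; every mark lies on the same side of 0 as its point.

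Of 30 tested arms of the neuronal maturation list, which holds miRNAs known from maturing neurons, 0 were higher in VZ, 11 were lower and 19 did not pass, against 7.37% called of all arms. Of the list, 23 arms averaged 10 CPM or more, a level at which 19.3% of arms were called. The list had a median log2 difference of -1.49, where all tested arms had -0.22. This list and those below were chosen with earlier results of these data known, so their counts are no separate support. Beside the arms above, miR-383-3p was called from few counts. Abundant members without a call were miR-149-5p and the 5p arm of miR-7 (-0.998 ± 0.417, edgeR adjusted p = 0.161), while miR-129-5p was at -0.26 ± 0.49. The number called lower ran from 8 to 12 when the block, the scaling or single libraries were changed, was 13 with DESeq2, and was 8 with VZ_18 replicate 1 and VZ_17 replicate 2 both left out. miR-128 of this list had no matching name and is not analysed here.

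Of 50 tested arms of the progenitor and radial glia list, 4 were higher in VZ, 2 were lower and 44 did not pass, against 2.63% higher and 4.74% lower of all arms. Most of the list, 40 arms, averaged 10 CPM or more, a level at which 29 of 405 arms were higher and 49 lower. miR-18a, miR-20a, miR-92a, miR-302b and miR-367 of this list had no matching name and are not analysed here. The median was 0.48, where all tested arms had -0.22. The 4 were both arms of miR-92b, miR-222-3p and miR-210-3p. The 2 lower were miR-17-3p, the partner of the proliferation-linked miR-17-5p, and miR-130b-5p. miR-17-5p itself was at -0.64 ± 0.38, miR-25-3p at 0.49 ± 0.39, miR-93-5p at 0.59 ± 0.43 and miR-20b-5p at 0.93 ± 0.41, none of which passed (edgeR adjusted p = 0.339, 0.484, 0.442 and 0.193). This list depended on the libraries. With VZ_18 replicate 1 and VZ_17 replicate 2 both left out, 9 of its arms were higher and 1 lower. DESeq2 called 10 higher and 3 lower, and with library totals 6 were higher and 0 lower. There were 3 higher and 4 lower without VZ_17 replicate 1, and 5 higher and 0 lower without VZ_18 replicate 1.

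Of 18 arms of let-7 and miR-98, 2 were higher (let-7b-5p and let-7c-5p), 3 lower (let-7i-5p, let-7f-5p and let-7g-5p) and 13 did not pass, with a median of -0.18. Without the block 0 were higher and 2 lower. Without VZ_17 replicate 1 there were 1 higher and 6 lower, without CP_17 replicate 2 or CP_18 replicate 2 there were 0 higher, and with VZ_18 replicate 1 and VZ_17 replicate 2 both left out 2 were higher and 1 lower. let-7d-5p, another abundant member, averaged 2538 CPM in VZ against 2810 CPM in CP. Reads of near-identical members may be shared between names, since the treatment of reads with several matches is not given in the sources used here. Of 8 arms of miR-181, which acts in the brain and in lymphoid cells, both arms of miR-181c were lower and the other 6 did not pass. Neither call was kept without the block, without VZ_18 replicate 1 (adjusted p = 0.112 for miR-181c-5p and 0.206 for miR-181c-3p) or with VZ_18 replicate 1 and VZ_17 replicate 2 both left out. That of miR-181c-3p also ended without CP_17 replicate 2, CP_18 replicate 1 or VZ_17 replicate 1 (0.207, 0.0827 and 0.0653), and with DESeq2's size factors or library totals. miR-181a-5p was at -1.06 ± 0.43 and miR-181b-5p at 0.31 ± 0.38 (edgeR adjusted p = 0.144 and 0.662). Of 10 arms of miR-99, miR-100 and miR-125, 1 was lower, miR-125a-5p, and 0 were higher. With DESeq2's size factors or library totals 1 arm of this list was higher and 0 were lower. Of 10 arms of miR-30, edgeR called 0, with 2 at an unadjusted p under 0.05, and DESeq2 called 1 higher. The nearest to a call was miR-30a-5p at 1.48 ± 0.55 (edgeR adjusted p = 0.105). Without VZ_17 replicate 1, 2 arms of miR-30 were lower, without VZ_18 replicate 2, 1 was lower, and without VZ_17 replicate 2, 3 were higher.

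The cluster on 14q32, a large imprinted miRNA domain active in neurons, had 4 of 78 tested arms lower in VZ, 0 higher and 74 that did not pass, where 4.74% of all arms were called lower. The median was -0.27, against -0.22 for all tested arms, and was 0.22 with library totals. Library totals gave 0 lower and 0 higher, DESeq2 9 lower and 5 higher, and leaving out 1 library 1 (without CP_17 replicate 2) to 6 lower (without VZ_17 replicate 1). The 4 were miR-323b-3p, miR-433-5p, miR-376c-3p and miR-487b-3p. miR-323a of this list had no matching name, and the close name miR-323-3p was not counted in the list. miR-323-3p was lower in VZ at -1.64 ± 0.48 (edgeR adjusted p = 0.02585), a call lost in 11 of the 17 alternatives. miR-487b-3p stood at 99.6, 119.6, 96.1 and 167.5 CPM in VZ and at 284.2, 341.6, 363.6 and 676.6 CPM in CP, with no overlap. By share of counts its zones did overlap, at up to 0.0225% in VZ and from 0.0172% in CP. Its call ended without CP_18 replicate 2 or VZ_18 replicate 1 (adjusted p = 0.0547 and 0.101). miR-376c-3p stood at 82.4, 80.8, 215.2 and 173.1 CPM in VZ and at 130.3, 398.9, 529.4 and 932.5 CPM in CP, where area 18 was above area 17 in each set and the zones overlapped. This call ended without CP_17 replicate 2, VZ_17 replicate 2 or VZ_18 replicate 2 (adjusted p = 0.139, 0.0686 and 0.0659). The summed level of the list ran from 777 to 2165 CPM in VZ and from 1402 to 4060 CPM in CP.

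Markers of other cells were read beside these groups. The myeloid and lymphoid list had 12 tested arms, 2 higher in VZ (miR-223-3p and miR-155-5p), 1 lower (miR-342-3p) and 9 without a call, with a median of 1.63. The myeloid miR-223-3p stood at 216.1, 118.2, 389.9 and 79.7 CPM in VZ and at 23.0, 25.1, 43.2 and 52.2 CPM in CP. Its call ended without CP_17 replicate 1 or CP_18 replicate 1 (adjusted p = 0.0627 and 0.0534). The pan-leukocyte miR-142-3p had 20, 0, 70 and 0 counts in VZ and 0 in all CP libraries. Of 4 erythroid arms edgeR called 0, with 2 at an unadjusted p under 0.05, and DESeq2 called 1 higher. The list had a median of 1.53, which was -0.49 with VZ_18 replicate 1 and VZ_17 replicate 2 left out. The summed level of the 12 myeloid and lymphoid arms, mostly that of miR-342-3p, ran from 6439 to 9052 CPM in VZ and from 16070 to 35390 CPM in CP. The part of these cells in the results was not tested.

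Of 10 endothelial and mural arms 8 did not pass, while miR-199b-5p was lower in VZ and miR-214-3p, transcribed with miR-199a, was higher. Both calls ended without any 1 CP library (adjusted p from 0.0845 to 0.166), and that of miR-199b-5p also without VZ_17 replicate 1, VZ_18 replicate 1 or VZ_18 replicate 2 (0.1, 0.107 and 0.124). The endothelial miR-126-3p averaged 1410 CPM in VZ against 2183 CPM in CP (-0.61 ± 0.35, edgeR adjusted p = 0.321), and the summed level ran from 2937 to 4384 CPM in VZ and from 2280 to 5680 CPM in CP. Of 4 oligodendrocyte arms, miR-219-3p was higher in VZ and both arms of miR-338 were lower. miR-219-3p stood at 37.0, 106.8, 159.4 and 32.5 CPM in VZ and at 17.3, 19.5, 2.88 and 11.9 CPM in CP, whereas miR-338-5p stood at 25.2, 23.3, 41.9 and 57.9 CPM in VZ and at 209.7, 175.1, 210.1 and 148 CPM in CP. Without VZ_18 replicate 1 neither call was kept (adjusted p = 0.0779 and 0.0534), and that of miR-219-3p also ended without CP_17 replicate 1 or CP_18 replicate 1 (0.063 and 0.0984). miR-338 is also expressed in neurons, from an intron of AATK. The choroid plexus list had 3 tested arms, of which 1 was called, miR-204-5p. Its relative miR-211-5p averaged 62.8 CPM in VZ against 25.1 CPM in CP (1.47 ± 0.68, edgeR adjusted p = 0.213).

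The arms of a hairpin went the same way wherever both were called. Of 107 hairpins with both arms at 10 CPM or more, 41 had at least 1 called arm and 7 had both. miR-92b, miR-574 and miR-605 were higher in VZ on both arms, and miR-132, miR-135b, miR-181c and miR-338 lower on both. The ratio of 5p to 3p counts within a hairpin, which does not depend on the scaling between libraries, was tested for 270 names with limma. It gave 0 calls (0% of names), 38 had an unadjusted p under 0.05, and the count was also 0 in every alternative tried. Summed over all hairpins, 5p arms held 62.9% to 81.1% of the counts in VZ and 84.7% to 88.8% in CP. The means were 73.5% ± 8.75 and 87.4% ± 1.83 (SD, n = 4), and the difference of -13.9 percentage points had an exact two-sided permutation p of 0.0286, the smallest that 4 against 4 libraries can give, and 0.0857 adjusted over 3 measures. With libraries exchanged only within their set, which leaves 36 arrangements, the exact permutation p was 0.0556, the smallest these allow, and 0.167 adjusted. The difference thus did not pass in either form. Beside it, the share of miR-130b-3p was 15.6% and 21.8% in the VZ libraries of set 1 and 0.44% and 0.27% in those of set 2. In set 1, 5p arms held 69.8% and 62.9% in VZ and 88.8% and 84.7% in CP. In set 2 they held 80.1% and 81.1% in VZ and 87.6% and 88.4% in CP. The part of miR-130b-3p in the difference was not tested.

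The zone difference was compared between the sets as a measure of how well it repeated. All 78 called arms of at least 10 CPM had the same direction in both sets, a property that the call itself favours, and 59 of them had set values within 1 log2 unit of each other. Of the 327 arms without a call, 220 (67.3%) had the same direction. Over all 405 arms the correlation between the sets was 0.62, across arms that share libraries within each set. Between areas 17 and 18, 287 of 405 arms (70.9%) had the same direction, with a correlation of 0.53.

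**Figure D4:**
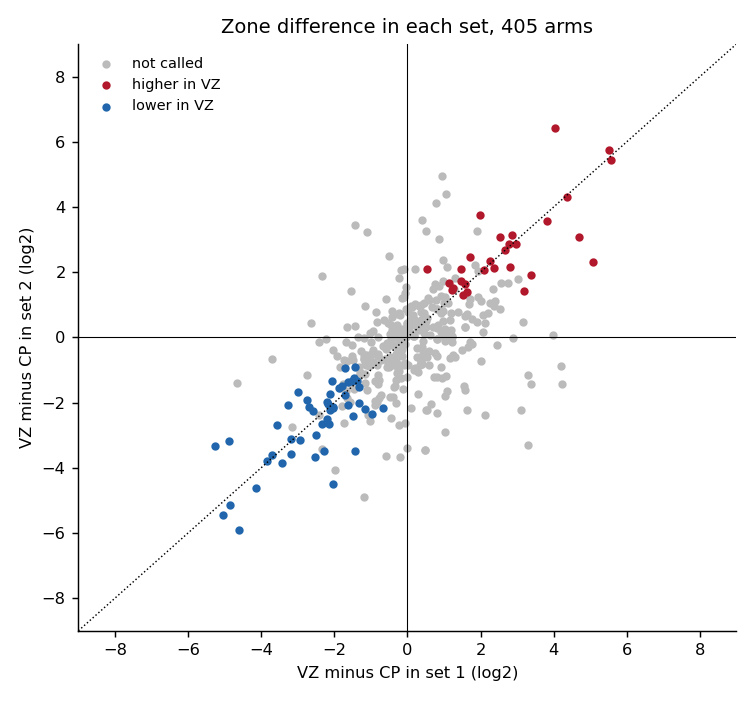
VZ minus CP (log2) in set 1 (x axis) and set 2 (y axis) for the 405 arms averaging 10 CPM or more, with the dotted line marking equal values. The 29 red and 49 blue called arms lie in the upper right and the lower left, and the grey arms without a call spread over the whole plot, with 220 of 327 on the same side in both sets.

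Whether the zone difference itself differed between the areas was tested in the same fit. It gave 1 call (0.0878% of 1139 arms) by edgeR, with 66 arms at an unadjusted p under 0.05. The arm, miR-652-3p, had 1988, 21, 58510 and 183 counts in VZ and 2940, 341, 4126 and 89 in CP. Nearly all its counts were in set 1, and VZ_18 replicate 1 held most of them. The difference between areas was -4.71 ± 0.91 on the log2 scale (adjusted p = 0.0108). It ended without VZ_18 replicate 1 (-3.91, adjusted p = 0.178), CP_17 replicate 2 (-2.63, adjusted p = 1) or CP_18 replicate 1 (-4.52, adjusted p = 0.12), and without the block.

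Some abundant arms followed the set more than the zone. miR-130b-3p ranked 2 in VZ by its mean share, which came from set 1. It held 15.6%, 0.44%, 21.8% and 0.27% of the counts in VZ and 2.44%, 0.334%, 6.11% and 0.264% in CP. Its partner miR-130b-5p did the opposite, with 0.185%, 2.16%, 0.19% and 0.898% in VZ and 0.315%, 3.64%, 0.326% and 2.64% in CP. Within each set and area miR-130b-5p was lower in VZ, which the fit called at -1.41 ± 0.37 (edgeR adjusted p = 0.0126). The call ended without CP_17 replicates 1 or 2, CP_18 replicate 2 or VZ_18 replicate 1 (adjusted p from 0.0543 to 0.063), and without the block.

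miR-34a-5p, induced by p53, held 2.35%, 0.0148%, 4.75% and 0.014% of the counts in VZ and 0.676%, 0.0141%, 1.87% and 0.00644% in CP. Every set 1 library lay far above every set 2 library. Among called arms the largest distance between sets was that of miR-3164-5p, at 1545, 0, 5226 and 5.37 CPM in VZ and at 694.1, 0.238, 2157 and 0.127 CPM in CP. Its call as higher in VZ rested on set 1, and without VZ_17 replicate 1 its log2 difference turned from 1.68 to -0.68 (adjusted p = 0.578). Arms over 8-fold apart between the sets by mean share were counted where the libraries of the sets also did not overlap. Of the 405 arms, 8 such arms were higher in set 1 and 11 in set 2, and 2 of these 19 were called between the zones. Sets differ by embryonic day and by whatever else was done per set, which cannot be told apart.

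**Figure D5:**
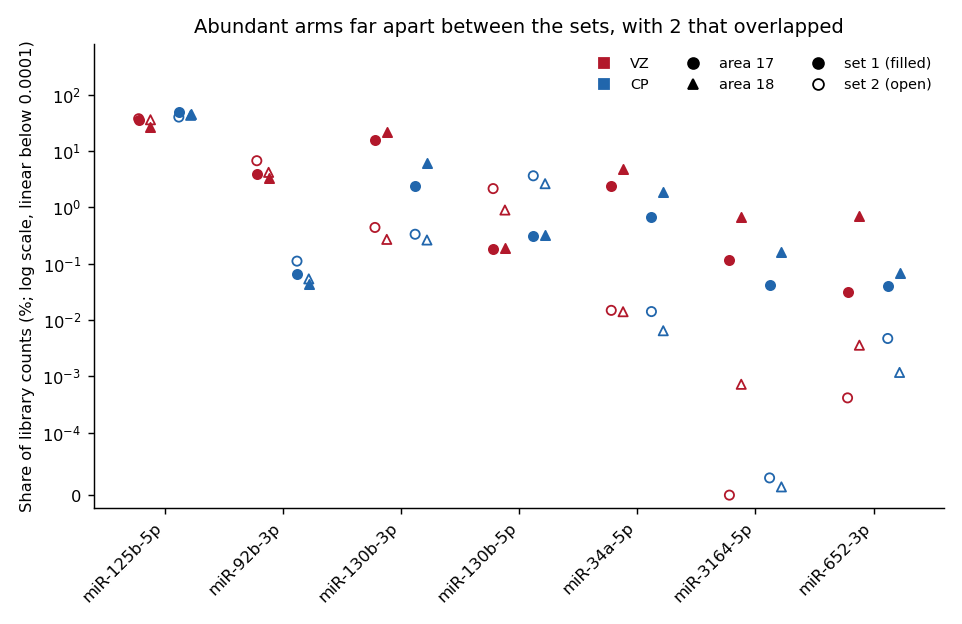
Share of library counts (%, log scale, linear below 0.0001) in the 8 libraries for 5 arms far apart between the sets, with miR-125b-5p and miR-92b-3p for scale. Red is VZ and blue CP, circles are area 17 and triangles area 18; filled symbols (set 1) lie above open symbols (set 2) for miR-130b-3p, miR-34a-5p, miR-3164-5p and miR-652-3p and below them for miR-130b-5p.

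The 6 called arms under 10 CPM rested on few counts. miR-1284-3p had 0 counts in all VZ libraries and 4, 23, 15 and 15 in CP. miR-320e-5p had 0 in all VZ libraries and 0, 40, 23 and 16 in CP, and miR-637-5p 0 in VZ and 9, 2, 1 and 74 in CP. No fold change can be given for these 3. miR-383-3p had 2, 1, 2 and 0 counts in VZ and 8, 182, 62 and 52 in CP, and miR-554-3p 0, 1, 0 and 0 in VZ and 13, 39, 30 and 2 in CP. miR-1911-3p, the arm of this group higher in VZ, had 0, 21, 780 and 0 counts in VZ and 0, 1, 1 and 0 in CP, so that VZ_18 replicate 1 held nearly all of them.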

How the data were processed

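Small RNA was sequenced from laser-cut VZ, outer subventricular zone and CP. Per the labels' protocols, RNA was extracted with a Qiagen kit, with DTT added, and libraries were made with a SOLiD total RNA-seq kit with size selection. The authors deposited raw read counts per miRNA name and arm. The aligner, genome build, miRNA annotation and treatment of reads with several matches are not given in the sources used here. The deposited columns name a region, and were assigned to set 1 or 2 from the spelling of the subventricular sublayers and because both tables hold all 7 regions. Left unused were 12 columns (6 libraries) with names that match no label. The third set, 6 labelled samples, is not analysed here.

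The tables hold 861 and 868 names, of which 828 are shared and gave 1656 arms. Names of only 1 table held 0.00161% and 0.0043% of the counts. filterByExpr by region kept 1139 arms with 99.99% of the counts. The 14 libraries were scaled by TMM, and edgeR 4.0.16 was used for the test (R 4.3.3, quasi-likelihood F test, Benjamini-Hochberg adjustment over all tested arms, called under 0.05), with the set as a block. The contrast was the mean of VZ_17 and VZ_18 minus that of CP_17 and CP_18, with 6 residual and 28.1 prior degrees of freedom. The outer subventricular zone entered the scaling, the filter, the set term and the spread, so its 6 libraries contribute to every SE. Arms of at least 10 CPM had a median biological coefficient of variation of 64.2%. The 5p to 3p ratio was tested with limma 3.58.1 on log2 ratios of counts with 0.5 added to each arm, and shares per library with an exact permutation test, repeated within sets as a check chosen after the data were seen. Single libraries hold reads without molecular identifiers, so precision was taken from the spread between libraries.

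Sets pair the libraries by day, per the labels. Deviations from the region means correlated within sets in all 6 pairs of the 4 regions (r from 0.20 to 0.57 across 405 arms). Named arms were the 20 most abundant of each zone, all called arms of at least 10 CPM with 1 direction in both sets, zone-specific arms, and up to 4 members of a list. miR-383-3p and the other called arms under 10 CPM, miR-652-3p and the arms far apart between the sets were named after their values were seen. The members and lists were chosen with earlier results of these data known. Alternatives were no block, other scalings, DESeq2 1.42.0, other filters, fewer libraries and sums per set and zone. The pipeline was tested on simulated counts, where 5 of 105 calls were false. The simulated counts held no set effect and no differences between regions beyond the changes put in. The rates may therefore differ for these libraries.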

Additional observations from a re-analysis of the deposited data

Results flagged for a closer look

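Within the 4 libraries of a zone, 1 library stood apart from the other 3 by Dixon's criterion in 19 of 186 groups checked (93 named arms in 2 zones). The criterion gives about 1 in 20 for independent, normally distributed values. CPM on a linear scale are skewed and the arms share libraries, so no excess can be read from this count. VZ_18 replicate 1 accounted for 5 of the 19. It was the highest VZ library for miR-31-3p at 230.3 CPM, miR-323-3p at 162.5 CPM, miR-628-5p at 139 CPM, miR-192-5p at 66.8 CPM and miR-873-3p at 3.26 CPM. VZ_17 replicate 2 was the highest for miR-574-3p at 5194 CPM, miR-574-5p at 651.7 CPM, miR-598-3p at 154.6 CPM and miR-135b-3p at 45.6 CPM, and VZ_18 replicate 2 for miR-204-5p at 1906 CPM.

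Among CP libraries, CP_18 replicate 2 was the highest for miR-23a-3p at 1588 CPM, miR-132-5p at 364.3 CPM, miR-29a-3p at 113 CPM and miR-605-5p at 16.3 CPM. CP_18 replicate 1 was the highest for miR-331-3p at 7354 CPM, miR-4271-5p at 415.8 CPM and miR-31-3p at 1.77 CPM, CP_17 replicate 1 the highest for miR-221-3p at 17420 CPM, and CP_17 replicate 2 the lowest for miR-28-3p at 93.0 CPM.

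The difference between VZ and CP was called as differing between areas 17 and 18 for miR-652-3p, by -4.71 on the log2 scale in a test of the difference itself (edgeR adjusted p = 0.0108). VZ_18 replicate 1 held most of its counts. The call ended without that library, CP_17 replicate 2 or CP_18 replicate 1, without the block, and among arms of at least 10 CPM.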

How the results depend on the processing

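Calls here rest on 4 libraries a zone and on the set block. The test recovered few 2-fold changes on simulated counts, so an arm without a call may still differ, and some arms of low level rest on single libraries. Of 78 named calls, 35 held in all 17 alternatives, and 43 ended in some, of which 1 changed direction. CP_17 replicate 2 ended most of them when left out (27, adjusted p from 0.0511 to 0.269), and VZ_17 replicate 1 fewest (9, from 0.0515 to 1).

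Without the replicate block 53 arms were called, 21 higher and 32 lower, all of them among the 84, and 0 arms between the areas. Library totals gave 32 lower, DESeq2 169 called with 95 higher, and arms of at least 10 CPM 46 higher. With VZ_18 replicate 1 and VZ_17 replicate 2 both left out, 46 were higher and 34 lower, and 58 of these 80 were among the 84. Leaving out 1 library gave 53 (without CP_17 replicate 2) to 120 calls (without VZ_17 replicate 1), with 16 to 49 higher and 31 to 71 lower. Between the areas 4 arms were called with no filter, 0 among arms of at least 10 CPM, 3 with VZ and CP libraries only, and 0 to 18 with 1 library left out.

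Of the named arms without a call, miR-221-3p, miR-9-3p and miR-9-5p passed in some alternative. miR-9-3p passed with both VZ libraries left out (1.31, adjusted p = 0.00687). Some uncalled abundant arms changed sign. miR-149-5p was at 0.15 with DESeq2's size factors, 0.36 with library totals, 0.15 with DESeq2, 0.15 with no filter, 0.24 among arms of at least 10 CPM, 0.0406 with VZ and CP libraries only and 0.10 with both VZ libraries left out. miR-191-5p was at 0.12, 0.33, 0.12, 0.11, 0.21, 0.0108 and 0.0539 in the same order. With both left out miR-24-3p was at 0.0072, miR-26a-5p at 0.10 and miR-9-5p at 0.00565 (-2.14 and called without VZ_17 replicate 1), and with counts summed per set and zone miR-16-5p was at -0.0262. With 1 library left out the ranges were -0.25 to 0.26 for miR-149-5p, -0.21 to 0.75 for miR-15b-5p, -0.60 to 0.64 for miR-16-5p, -0.26 to 0.21 for miR-191-5p, -0.19 to 1.02 for miR-9-3p, -0.11 to 0.74 for miR-99a-5p and -0.68 to 2.65 for miR-3164-5p.

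Of the library measures, the share of the 10 most abundant arms differed by -0.24 percentage points (77.1% in VZ, 77.3% in CP) and the number of arms holding 90% of the counts by 1.5. Without miR-125b-5p these were 6.16 and -3.25, and with 1 library left out they ran from -1.56 to 1.21 and from -1.08 to 4.25. Where no value shows it, the cause was not tested.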

Other observations

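The abundant miR-484-5p, singled out after its values were seen and in none of the lists, held 0.394% ± 0.153 of the counts in VZ and 0.512% ± 0.113 in CP (SD, n = 4). The 95% interval of its log2 difference, -1.58 to -0.11, lay below 0, and it did not pass after adjustment (edgeR adjusted p = 0.176).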
